A study of Mus musculus with 2 samples.

Results

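The integrated stress response genes described here are 10 genes of mouse pancreatic tumours: Ppp1r15a, Atf4, Ddit3, Ddit4, Trib3, Chac1, Asns, Sesn2, Gadd45a and Gadd45b. They were found by symbol among the 32245 gene symbols that both libraries list, and all 10 were present. Ddit3 has a second gene row, ENSMUSG00000116429, which held 0 counts in both libraries, so its values all come from ENSMUSG00000025408. The RNA of single cells was sequenced from pancreatic tumours of KPPC mice, with 1 library for vehicle and 1 for takinib at 50 mg/kg, and the labels give an age of 6 weeks and a treatment of 14 days for both groups. KPPC is a genetically engineered model of pancreatic ductal cancer; the labels do not spell out its alleles, the sex of the mice, or how many mice each library pooled. Takinib is a small-molecule inhibitor of the kinase TAK1, and the comparison asks how tumour cells of treated mice differ from those given vehicle. Each group is 1 library, so nothing here could be tested across replicates and p-values are left out.

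The integrated stress response begins when a kinase that senses starvation, misfolded protein in the endoplasmic reticulum, viral RNA or lack of heme phosphorylates the translation factor eIF2. Most protein synthesis then slows while translation of Atf4 rises, and the ATF4 protein, with C/EBP partners, raises transcription of genes for amino acid supply, redox balance and, under lasting stress, cell death. Since ATF4 is set mainly at translation, its mRNA does not report its activity. Several members also answer to other pathways, among them p53 for Gadd45a and Sesn2, hypoxia and glucocorticoids for Ddit4, and NF-kB for Gadd45b.

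The letters that ATF4 dimers are known to read stand close to the start of a few members, and the sequences that hold them are shown because the members differ in this respect. In the 300-base windows of RefSeq for GRCm38.p6, from 250 bases before to 50 after the start of each gene, all 10 members had an entry. The C/EBP-ATF letters TGATGNAA, searched on both strands, were in 3 of the 10, Asns, Chac1 and Trib3, and in 3.97% of 32851 windows. The letters TGACGTCA of a full cyclic AMP response element, also searched on both strands, were in 1 of the 10, Ppp1r15a, and in 1.79% of the windows, and no member held both strings. The other 6 members held neither string in this window. Capitals mark the matched letters, each sequence runs 5′ to 3′ on the strand of its gene, and a match is a description and not a shown site of binding.
Asns, chr6:7693214-7693243, minus strand: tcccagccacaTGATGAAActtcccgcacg
Trib3, chr2:152344028-152344057, minus strand: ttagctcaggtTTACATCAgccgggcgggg
Chac1, chr2:119350992-119351228, plus strand: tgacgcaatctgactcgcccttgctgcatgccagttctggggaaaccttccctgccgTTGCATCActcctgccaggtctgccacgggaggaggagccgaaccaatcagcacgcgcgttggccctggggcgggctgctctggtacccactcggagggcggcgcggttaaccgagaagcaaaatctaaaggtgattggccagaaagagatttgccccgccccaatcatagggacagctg
Ppp1r15a, chr7:45526269-45526518, minus strand: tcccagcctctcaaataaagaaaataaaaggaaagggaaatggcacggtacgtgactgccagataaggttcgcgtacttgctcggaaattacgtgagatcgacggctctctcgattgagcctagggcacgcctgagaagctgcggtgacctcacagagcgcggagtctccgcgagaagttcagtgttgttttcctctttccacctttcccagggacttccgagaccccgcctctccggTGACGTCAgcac
The Asns match begins 23 bases before the RefSeq start and the Ppp1r15a match 12 bases before it, both on the strand of the gene. The Chac1 match begins 193 bases before the start and the Trib3 match at base 15 of the transcript, both read as the motif on the opposite strand. The stretches of Asns and Trib3 overlap the GENCODE gene and were kept to 30 bases.

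Equal filters left 9872 cells of vehicle and 26790 of takinib. Removal of doublets, by a different rule in each library, left 9558 and 25183 cells. They held 42000538 and 119726977 unique molecule counts (UMIs), a median of 3556 and 2887 UMIs per cell, and a median mitochondrial share of 8.70% and 1.79%. The 2 libraries shared 400 cell barcodes past the filters. Cells were clustered into 23 clusters, and classes were named from marker genes. The share of macrophage-like cells was 51.7% in vehicle and 12.7% in takinib, and that of neutrophil-like cells 2.81% and 47.0%. Vehicle held cells of both sexes, with 3087 cells that had UMIs of 4 Y-linked genes and no Xist and 1075 with Xist and no Y-linked UMI; takinib held 14324 of the latter and 0 of the former. Sex and treatment are therefore partly confounded, and takinib ratios against the vehicle cells with Xist alone are given beside each 2-fold difference that they end. A class entered the comparison where each library had 100 of its cells or more: epithelial-like (1145 and 1061 cells), fibroblast-like (644 and 309), macrophage-like (4944 and 3191), neutrophil-like (269 and 11835), dendritic-like (129 and 116), T-like (221 and 1022) and B-like cells (207 and 668). Clusters 4, 7 and 21 stayed unnamed, with 7, 598 and 2 vehicle cells and 3087, 804 and 565 takinib cells.

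Levels are in CPM, counts scaled to the total UMIs of the class and library, and a ratio is the takinib CPM divided by the vehicle CPM. Square brackets hold exact 95% intervals that cover counting error only. A member counts as tested in a class where the mean CPM of both libraries stands for at least 10 counts in each, and as higher or lower where its ratio is at least 2-fold.

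Over all kept cells the 10 members lay higher in takinib, from 1.11-fold for Atf4 to 10.4-fold for Gadd45b, with a median ratio of 1.73 against 0.79 for all genes tested. Gadd45b, Ppp1r15a, Chac1, Gadd45a and Sesn2, 5 of the 10, were at least 2-fold higher and 0 were 2-fold lower, where 7.76% of 16809 genes were 2-fold higher and 20.3% lower. Against only the vehicle cells with Xist and no Y-linked UMI, Gadd45b (10.5) and Ppp1r15a (4.18) stayed above 2-fold, while Sesn2 was 1.94, Gadd45a 1.74 and Chac1 1.67. Trib3, at 1.16 against all vehicle cells, was 0.46 there. Asns (0.90), Atf4 (0.90) and Ddit3 (0.91) also came below 1 against that set. With 10 CPM added Chac1 was 1.14 and Sesn2 1.55. These totals mix cells in unequal shares. In takinib, neutrophil-like cells gave 23.3% of all UMIs but 65.8% [65.2, 66.3] of the Gadd45b counts, 59.3% [58.6, 60] of the Ppp1r15a counts, 58.3% [57.4, 59.1] of the Gadd45a counts and 54.9% [52.9, 56.8] of the Sesn2 counts. They gave 20.5% [18.8, 22.4] of the Asns counts and 24.6% [19.3, 30.5] of the Chac1 counts, near their share of UMIs. Levels were therefore compared within classes.

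**Figure D1:**
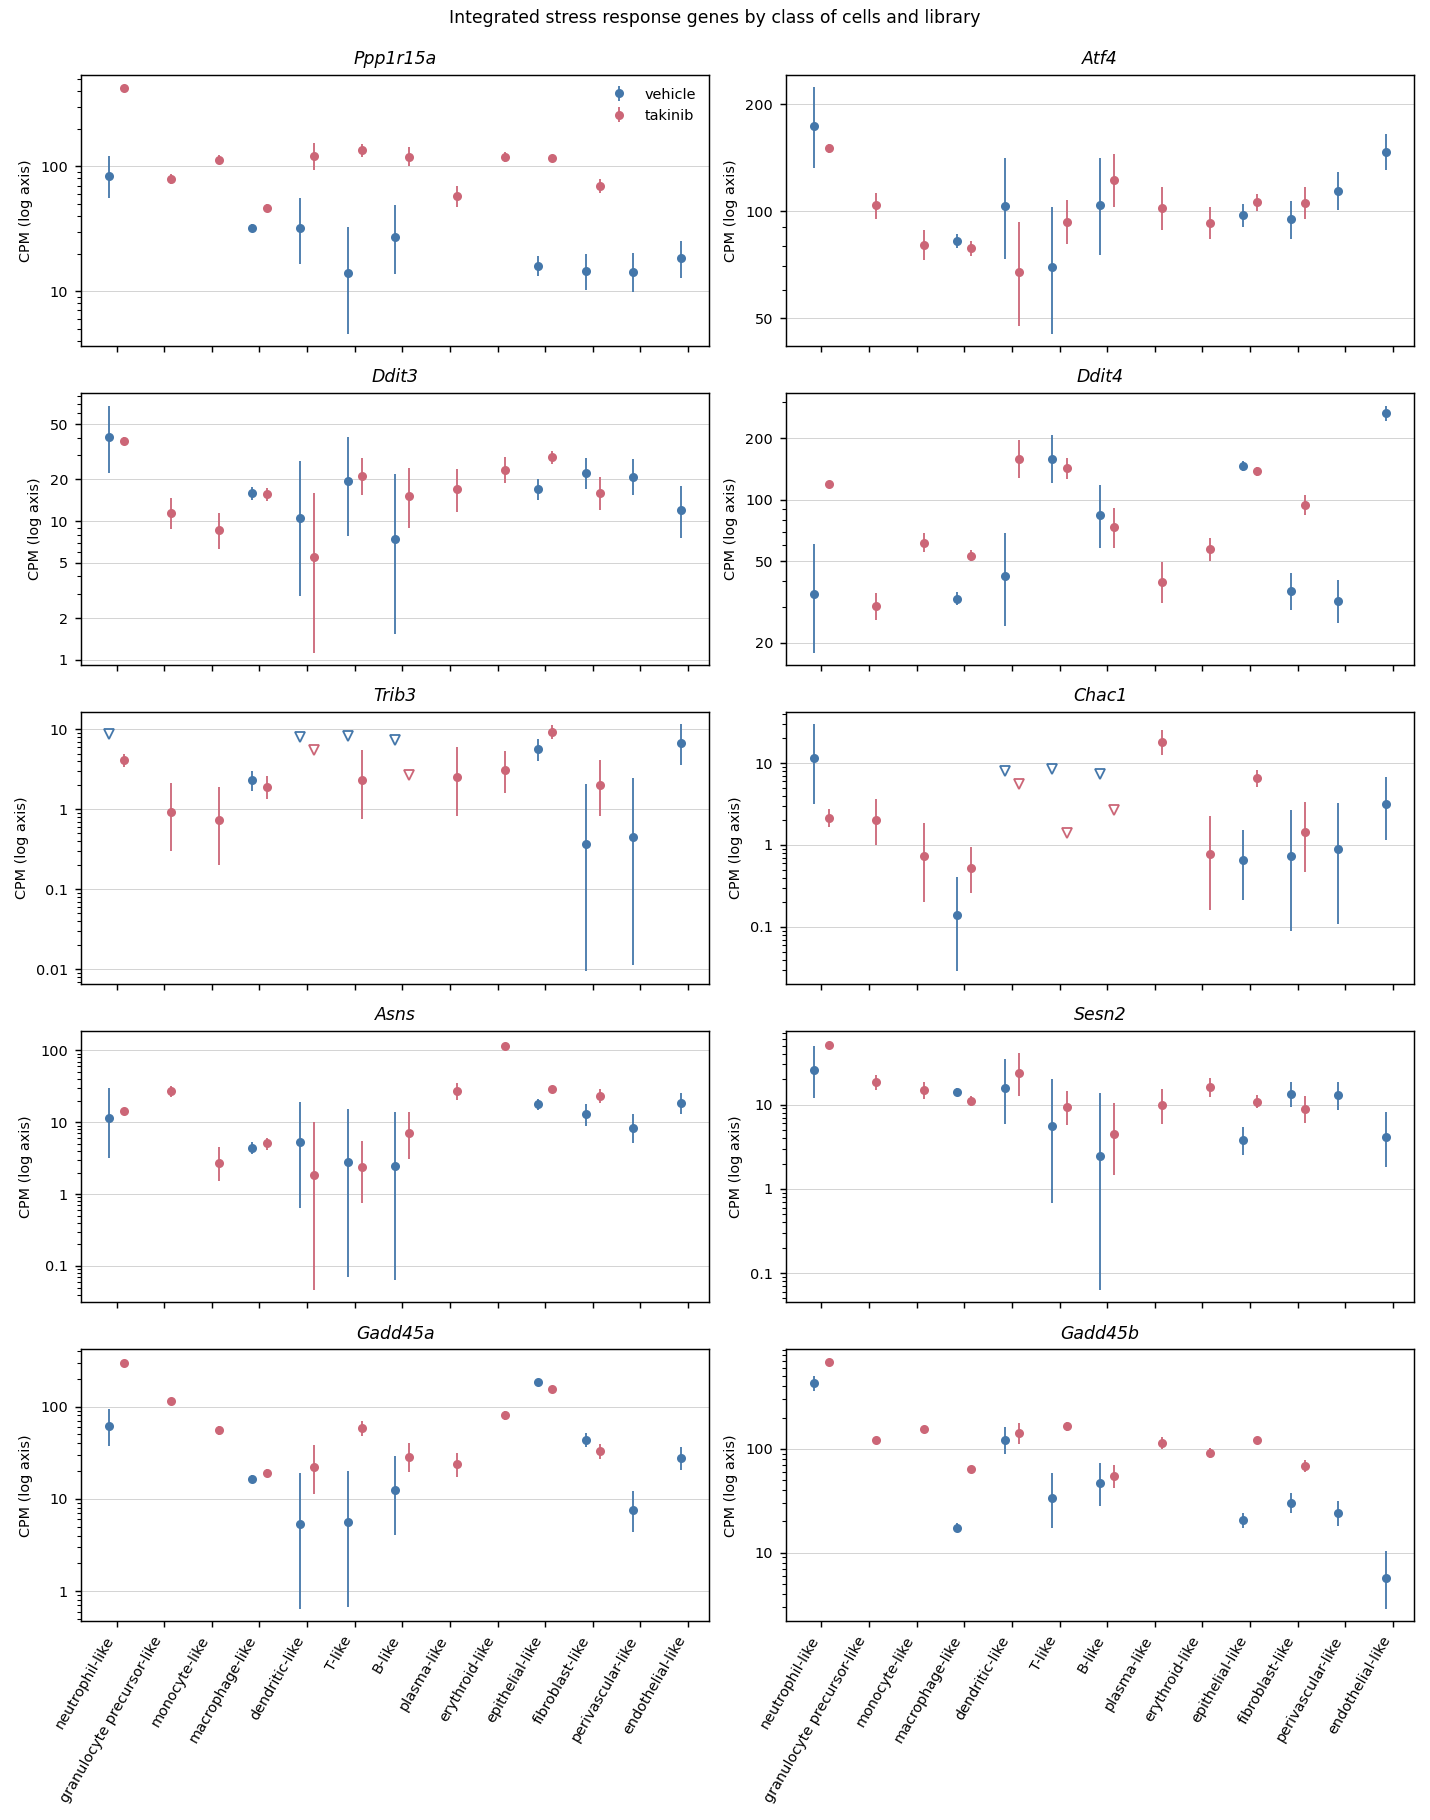
Levels of the 10 genes (CPM, log axis) in classes with at least 100 cells in the library shown, blue for vehicle and red for takinib; bars are 95% Poisson intervals and open triangles mark 3 counts where the count was 0. Ppp1r15a in vehicle lay at 14.0 to 32.1 CPM in every class shown but neutrophil-like cells, and in takinib at 46.6 to 427 CPM. Atf4 had no ratio of 2-fold or more in the 7 classes compared. It was farthest apart in dendritic-like cells, at 103 CPM in vehicle and 67.6 in takinib.

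The upstream factor Atf4 (chr15:80255184-80257541, plus strand) had no ratio of 2-fold or more in the 7 classes. Its level was 97.3 CPM in vehicle and 106 in takinib epithelial-like cells, 82.4 and 78.6 in macrophage-like cells, and 174 and 150 in neutrophil-like cells. The interval of its ratio included 1 in all 7 classes, and the ratios ranged from 0.65 [0.41, 1.05] in dendritic-like to 1.34 [0.88, 2.12] in T-like cells. In these small classes it was unstable, at 4.21 in T-like cells with mitochondrial UMIs limited to 10%, 0.50 in B-like cells with at least 2000 UMIs, and 0.44 in dendritic-like cells thinned to 1000 UMIs. Among vehicle classes Atf4 was highest in neutrophil-like and endothelial-like cells (147 CPM), whose intervals overlapped, and lowest in T-like cells at 69.8 CPM.

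Ddit3 (chr10:127290774-127296288, plus strand), which encodes the death-promoting factor CHOP, stood higher in takinib in 1 of the 4 classes where it was tested. In epithelial-like cells it was 16.9 CPM in vehicle and 29.0 in takinib, a ratio of 1.71 [1.39, 2.11]. In fibroblast-like cells the order was opposite, 22.2 and 15.9 CPM, with a ratio of 0.72 [0.49, 1.05] whose interval includes 1. Macrophage-like cells were at 15.9 and 15.7 CPM, and neutrophil-like cells at 40.5 and 38.1 CPM, the highest level of the gene in either library, although the vehicle value rests on 14 counts and its interval overlaps that of fibroblast-like cells. An exon of Ddit3 overlaps the second Ddit3 row on the same strand and Mars and Gm4189 on the opposite one, and the sources used here do not say whether counting used strand.

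Ppp1r15a (chr7:45522916-45526268, minus strand) encodes GADD34, the inducible subunit that steers protein phosphatase 1 to eIF2 and so ends the response. It was higher in takinib in all 7 classes and at least 2-fold so in 6. The level was 15.9 CPM in vehicle and 116 in takinib epithelial-like cells, a ratio of 7.31 [6.06, 8.88]. T-like cells held 14.0 and 135 CPM (9.66 [4.09, 30], from 5 vehicle counts), and neutrophil-like cells 84.0 and 427 CPM (5.09 [3.54, 7.60]). Fibroblast-like cells stood at 14.4 and 70.1 CPM (4.85 [3.45, 7.0]), B-like cells at 27.3 and 120 (4.39 [2.37, 9.0]), and dendritic-like cells at 31.8 and 121 (3.79 [2.03, 7.70]). Macrophage-like cells differed least, 32.1 and 46.6 CPM, or 1.455 [1.32, 1.61]. Against vehicle cells with Xist alone the macrophage-like ratio was 0.92 and the epithelial-like ratio 2.36. In takinib the neutrophil-like level lay above that of every other class without overlap of intervals, while T-like, dendritic-like, B-like, erythroid-like, epithelial-like and monocyte-like cells followed within overlapping neighbours. An exon of Ppp1r15a overlaps Tulp2 on the opposite strand.

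Trib3 (chr2:152337422-152344032, minus strand), a pseudokinase that restrains ATF4 and Akt signalling, was rare and was tested in 2 of the 7 classes. Epithelial-like cells held 43 counts in vehicle and 106 in takinib, 5.65 and 9.33 CPM, a ratio of 1.65 [1.15, 2.41]. Macrophage-like cells held 2.32 and 1.90 CPM, a ratio of 0.82 [0.53, 1.26]. Neutrophil-like cells had 0 counts in vehicle, where 3 counts would be 8.68 CPM, and 4.15 CPM in takinib, so a difference was not detectable at this depth. In vehicle the level was highest in endothelial-like (6.78 CPM) and epithelial-like cells, whose intervals overlapped.

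Chac1 (chr2:119351229-119354381, plus strand) encodes an enzyme that degrades glutathione and is a sensitive ATF4 target. It was tested in epithelial-like cells alone of the 7 classes, where 5 vehicle counts stood against 74 takinib counts, 0.66 and 6.52 CPM, a ratio of 9.92 [4.07, 31.5]. Against vehicle cells with Xist and no Y-linked UMI the ratio was 1.99. With every cell thinned to 1000 UMIs vehicle held 0 counts and takinib 2.83 CPM, at least 1.08-fold higher when vehicle is set at 3 counts. With 10 CPM added to both libraries the ratio was 1.55. Neutrophil-like cells, not counted as tested, held 4 vehicle counts and 60 takinib counts, 11.6 and 2.15 CPM, a ratio of 0.19 [0.069, 0.70]. In takinib the highest level was 18.0 [12.6, 25.1] CPM in plasma-like cells, above epithelial-like cells without overlap; only 37 vehicle cells were plasma-like, and they held 1 count.

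Asns (chr6:7675169-7693254, minus strand), the enzyme that makes asparagine and a standard ATF4 target, was higher in takinib in the 3 classes where it was tested, below 2-fold in each. Epithelial-like cells held 17.9 CPM in vehicle and 29.0 in takinib (1.62 [1.32, 2.00]), and fibroblast-like cells 13 and 23.2 (1.79 [1.19, 2.74]). Macrophage-like cells were at 4.41 and 5.07 CPM, with an interval that included 1 (1.15 [0.86, 1.53]). Against vehicle cells with Xist alone the ratio was 0.80 in epithelial-like, 1.34 in fibroblast-like and 0.45 in macrophage-like cells. The highest level of Asns was 115 [105, 127] CPM in takinib erythroid-like cells, which numbered 497, against 2 such cells in vehicle. Epithelial-like and plasma-like cells came next at 29.0 and 27.3 CPM.

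Sesn2 (chr4:132492032-132510501, minus strand) encodes sestrin 2, a leucine sensor that lowers mTORC1 activity. It was 3.81 CPM in vehicle and 10.8 in takinib epithelial-like cells, a ratio of 2.84 [1.89, 4.42], and 26.1 and 51.0 CPM in neutrophil-like cells (1.96 [1.03, 4.29], from 9 vehicle counts). The order was opposite in macrophage-like cells, 14.1 and 11 CPM or 0.79 [0.66, 0.94]. Fibroblast-like cells held 13.3 and 9.0 CPM (0.67 [0.40, 1.12]), with a ratio of 1.39 after thinning to 1000 UMIs. The neutrophil-like ratio was 0.65 with mitochondrial UMIs limited to 10%. The epithelial-like ratio was below 2-fold when cells were thinned to 1000 UMIs (1.62), 10 CPM was added to both libraries (1.51), the neutrophil profile was subtracted (1.63) or vehicle cells with Xist alone were used (1.65).

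Ddit4 (chr10:59949669-59951834, minus strand) encodes REDD1, a second brake on mTORC1. It was at least 2-fold higher in takinib in 3 of 7 classes: fibroblast-like cells with 35.9 and 94.7 CPM (2.64 [2.1, 3.34]), neutrophil-like cells with 34.7 and 120 (3.44 [1.97, 6.67]), and dendritic-like cells with 42.4 and 159 (3.74 [2.18, 6.84]). Macrophage-like cells held 32.9 and 53.4 CPM, a ratio of 1.62 [1.47, 1.78]. The classes with high vehicle levels did not share this direction, since epithelial-like cells held 147 and 138 CPM (0.94 [0.87, 1.02]) and T-like cells 159 and 142 (0.89 [0.67, 1.21]). Vehicle endothelial-like cells had the highest level, 264 CPM, above the next class without overlap. Thinned to 1000 UMIs, the fibroblast-like ratio was 1.39. In cluster 12, which held nearly all vehicle neutrophil-like cells, Ddit4 was 35.0 and 59.2 CPM, 1.69 [0.95, 3.32], below 2-fold.

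Gadd45a (chr6:67035096-67037457, minus strand) and Gadd45b (chr10:80930073-80932204, plus strand) encode small stress sensors that bind cell cycle kinases and MAP kinase kinases, and they differed in where they stood apart. Gadd45a was lower in takinib epithelial-like cells, 184 CPM in vehicle and 153 in takinib (0.83 [0.77, 0.89]), and in fibroblast-like cells, 43.7 and 32.7 (0.75 [0.57, 0.98]), where thinning to 1000 UMIs turned the direction (1.30). It was higher in takinib neutrophil-like cells, 60.8 and 299 CPM (4.91 [3.21, 7.94]). T-like cells held 5.58 and 58.3 CPM, a ratio of 10.4 [2.83, 87.1] that rests on 2 vehicle counts. An exon of Gadd45a overlaps E230016M11Rik on the opposite strand.

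Gadd45b was higher in takinib in all 7 classes and at least 2-fold so in 4. It was 20.5 and 121 CPM in epithelial-like cells (5.90 [5.0, 7.01]), 17.4 and 63.4 in macrophage-like cells (3.65 [3.25, 4.10]), 33.5 and 165 in T-like cells (4.94 [2.79, 9.65]), and 30.3 and 68.0 in fibroblast-like cells (2.24 [1.74, 2.92]). Neutrophil-like cells already held 428 CPM in vehicle, the highest vehicle level of the gene, and 681 in takinib, a ratio of 1.59 [1.35, 1.88]. The intervals included 1 in dendritic-like cells, 122 and 142 CPM, and in B-like cells, 47.2 and 54.5 CPM. After the neutrophil profile was subtracted the ratio was 0.70 in B-like and 0.87 in fibroblast-like cells. The fibroblast-like ratio was 1.50 against vehicle cells with Xist alone. In cluster 12, which held nearly all vehicle neutrophil-like cells, the ratio was 0.94.

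**Figure D2:**
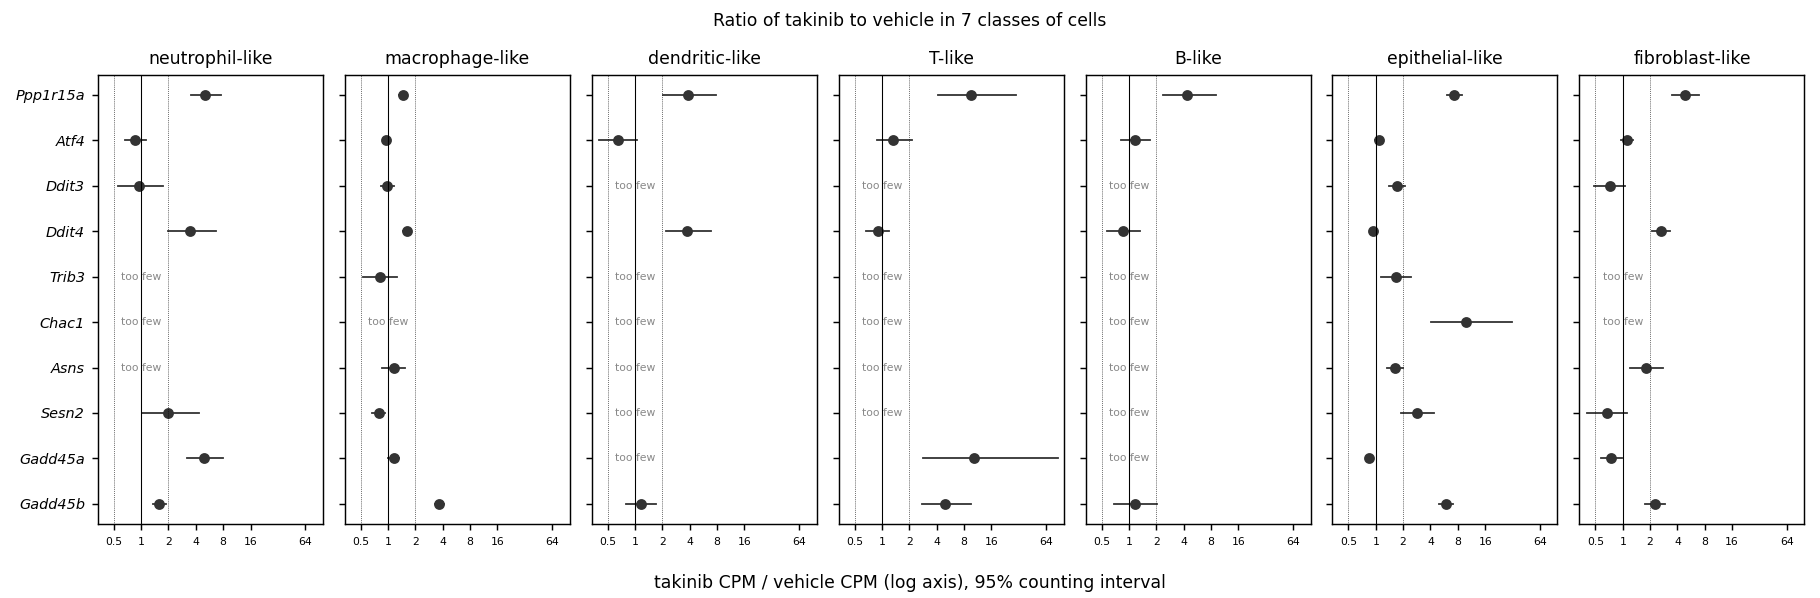
Ratio of takinib to vehicle CPM (log axis) for each gene in the 7 classes compared; points are ratios, lines 95% counting intervals, dotted lines 0.5 and 2, and "too few" marks genes not tested there. Ppp1r15a is the gene at or above 2-fold in 6 of 7 classes, and the Atf4 interval includes 1 in all 7.

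Read by class, 4 of 10 tested members were at least 2-fold higher in epithelial-like cells, the class of the 7 in which all 10 were tested. There 8.27% of 13677 genes were 2-fold higher and 10.7% lower. The median ratio of the members was 1.68 and that of all genes 0.89. Against vehicle cells with Xist alone, Chac1 and Sesn2 fell below 2-fold there, and the median ratio of the members was below 1. In neutrophil-like cells 3 of 7 tested members were higher (background 9.09% of 4050 genes higher and 28.7% lower) with a median of 1.96 against 0.70. T-like cells had 3 of 5 (5.76% of 4585 higher, 5.52% lower), fibroblast-like cells 3 of 8 (7.4% of 11623 higher, 13.9% lower), dendritic-like cells 2 of 4 (5.67% of 4724 higher, 5.42% lower) and B-like cells 1 of 4 (5.45% of 4900 higher, 4.67% lower). Macrophage-like cells had 1 of 9, Gadd45b, against 6.19% of 13441 genes higher and 8.16% lower, with a median of 1.15 against 1.04. With doublets kept, Ppp1r15a (2.63) and Gadd45a (2.69) also passed 2-fold in macrophage-like cells, and with clusters named by their best score Ppp1r15a (2.28), Gadd45a (2.39) and Ddit4 (2.06) did. The latter adds unnamed cluster 4, whose 3087 takinib cells held Ppp1r15a at 97.5 CPM, Gadd45b at 123, Gadd45a at 58.1 and Ddit4 at 81.3. No tested member was 2-fold lower in any of the 7 classes, and whether the ratios differ between classes was not tested.

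The same direction held within the 1 epithelial-like cluster with at least 100 cells in each library. Cluster 8, led by Cdkn2a, Hmga2 and Krt7, held 795 vehicle and 728 takinib cells, and 4 of 10 tested members were at least 2-fold higher, where 9.21% of 13022 genes were higher and 8.08% lower. Ppp1r15a there was 16.9 and 110 CPM, Gadd45b 21.7 and 117, Chac1 0.62 and 6.85, and Sesn2 3.44 and 10.1. Cluster 16 held 261 vehicle and 33 takinib cells, and cluster 22 held 0 and 217. Cluster 7, which scored both for epithelial and acinar markers and stayed unnamed, held Ppp1r15a at 7.04 and 59.8 CPM and Gadd45b at 13.8 and 60.4, with 3 of 9 tested members at least 2-fold higher (6.08% of 11853 genes higher, 5.62% lower).

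The macrophage-like clusters gave different counts. In cluster 0, led by MHC class II genes, 4 of 7 tested members were at least 2-fold higher in takinib (4.6% of 9536 genes higher, 2.27% lower): Gadd45b at 19.2 and 80.3 CPM, Ppp1r15a at 25.8 and 62.6, Ddit4 at 26.3 and 58.1, and Gadd45a at 12 and 24.1. In cluster 1, led by Gpnmb, Atp6v0d2 and Lpl, Gadd45b was the 1 of 9 that was higher, at 11.3 and 55.8 CPM, and Trib3 the 1 that was lower, at 5.67 and 2.40 (4.3% of 10656 genes higher, 3.69% lower). Ppp1r15a was 35.8 and 39.1 CPM there, and Ddit3 was 22.2 and 15.6. In cluster 2, led by Ccl8, Apoe and C1qc, the 1 of 9 higher was again Gadd45b, at 18.2 and 73.6 CPM, and the 1 lower was again Trib3, at 3.47 and 1.00 (5.42% of 10912 genes higher, 5.12% lower). Cluster 0 held 2883 vehicle and 371 takinib cells and cluster 1 held 859 and 1854, so the class as a whole averages these in different proportions.

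Neutrophil-like cells of the 2 libraries also lay in different clusters. Of the vehicle cells, 267 of 269 were in cluster 12, led by Ppy, Cxcr2 and Ins2, of which Ppy and Ins2 encode islet hormones, while takinib had 2512 there, 4917 in cluster 13 and 4406 in cluster 20. Within cluster 12, 2 of 7 tested members were at least 2-fold higher, where 7.39% of 4181 genes were higher and 17.9% lower. Ppp1r15a was 78.7 and 288 CPM (3.66 [2.5, 5.58]) and Gadd45a 61.2 and 208 (3.40 [2.21, 5.51]), whereas Gadd45b was level at 432 and 404 (0.94 [0.79, 1.12]). Cluster 20, led by G0s2, Ccl4 and Cxcl2, had the highest takinib levels of the 3 clusters for 6 members, with Ppp1r15a at 518 CPM, Gadd45b at 809, Gadd45a at 363, Ddit4 at 155, Sesn2 at 60.1 and Ddit3 at 41.5. Cluster 13, led by Chil1 and Lcn2, had 352, 615, 243, 94.2, 36.5 and 38.2 CPM in the same order. Granulocyte precursor-like cells, cluster 19, stood lower, with Ppp1r15a at 79.8 and Gadd45b at 121 CPM.

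**Figure D3:**
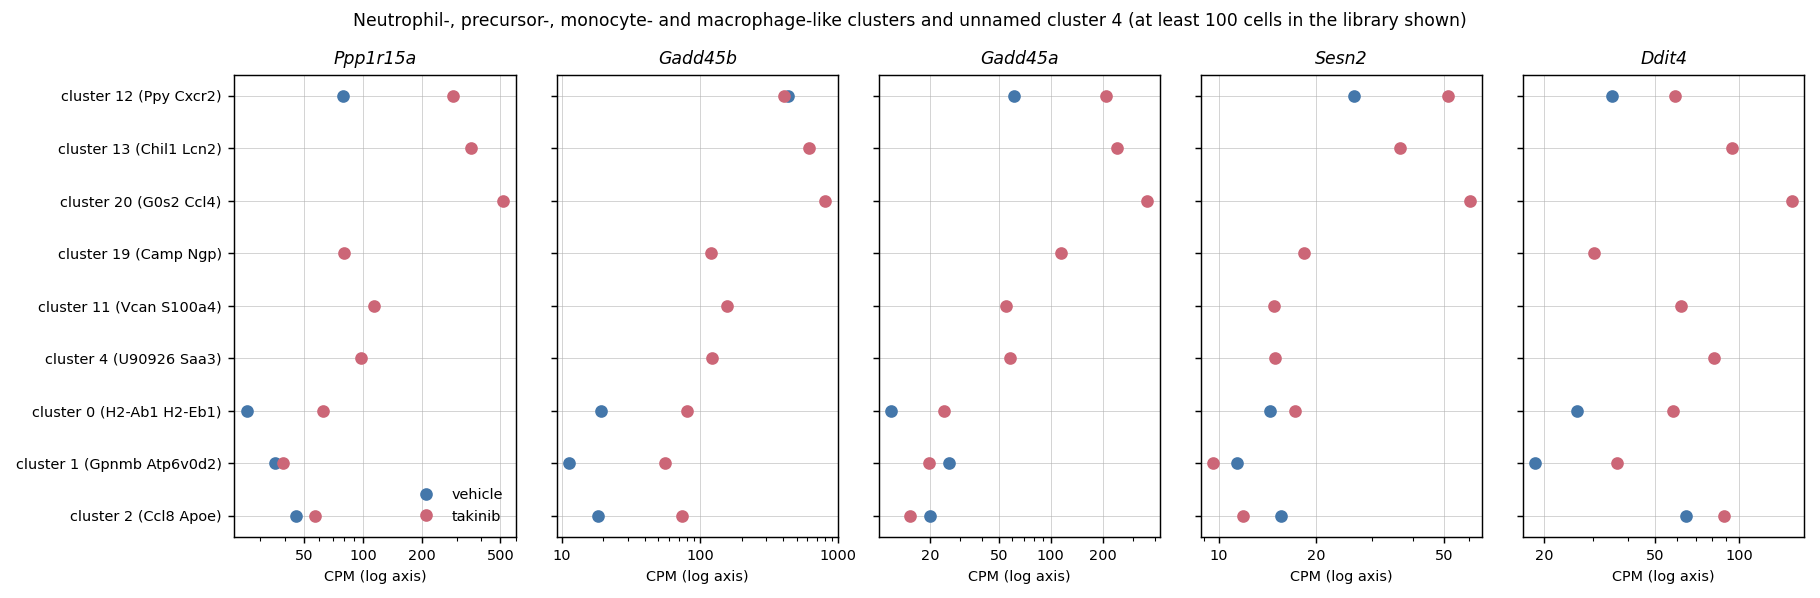
Levels (CPM, log axis) of 5 genes in the neutrophil-like, granulocyte precursor-like, monocyte-like and macrophage-like clusters and unnamed cluster 4, given by number and first leading genes, for libraries with at least 100 cells of the cluster; blue is vehicle and red takinib. Among the clusters shown, the red points of cluster 20 lie farthest right for all 5 genes, and in cluster 12 the Gadd45b points of the 2 libraries nearly coincide.

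Several members also differed between vehicle cells with different sex-linked transcripts. In macrophage-like cells with Xist and no Y-linked UMI against those with Y-linked UMIs and no Xist, 3 of 9 tested members were at least 2-fold higher and 0 lower, where 1.61% of 9823 genes were higher and 2.79% lower. Trib3 was 0.87 CPM with Y-linked UMIs and 6.78 with Xist (7.81 [2.97, 24.0]), Asns 2.31 and 11.3 (4.88 [2.58, 9.59]), and Gadd45a 13.9 and 28.6 (2.06 [1.51, 2.81]). Ppp1r15a was 28.3 and 50.5 CPM, a span that holds the takinib value of 46.6. Ddit4 had the opposite order, 31.0 CPM with Y-linked UMIs and 18.5 with Xist (0.60 [0.43, 0.82]). The 2 sets also lay in different clusters, with 61.6% of the Xist set in cluster 1 and 63.7% of the Y-linked set in cluster 0.

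In epithelial-like vehicle cells 3 of 7 tested members were at least 2-fold higher with Xist, where 3.24% of 8886 genes were higher and 3.08% lower. Ppp1r15a was 11.3 CPM with Y-linked UMIs and 49.2 with Xist (4.36 [2.85, 6.64]), Asns 15.3 and 36.1 (2.36 [1.51, 3.63]), and Ddit3 14.4 and 31.7 (2.20 [1.37, 3.47]). Takinib epithelial-like cells, none of which had a Y-linked UMI, held Asns and Ddit3 at 29.0 CPM each, within the span of those 2 sets. Against the Xist set alone, the takinib ratio of Ppp1r15a was 2.36 in place of 7.31, that of Gadd45b 3.81 in place of 5.90, that of Ddit3 0.91 in place of 1.71, that of Asns 0.80 in place of 1.62, and that of Trib3 0.57 in place of 1.65. Against the Y-linked set alone, a comparison added after the data were seen, the Ppp1r15a ratio was 10.3. In fibroblast-like vehicle cells 1 of 5 tested members was at least 2-fold higher with Xist, Ddit3 at 18.4 and 41.1 CPM, where 3.53% of 6432 genes were higher and 2.1% lower. The fibroblast-like takinib ratio against the Xist set was 3.24 for Ppp1r15a and 3.65 for Ddit4, but 1.50 for Gadd45b in place of 2.24, 0.39 for Ddit3 and 0.46 for Sesn2. In macrophage-like cells the takinib ratio against the Xist set was 4.11 for Gadd45b, 2.89 for Ddit4, 0.92 for Ppp1r15a and 0.45 for Asns. The sets held 131 and 566 epithelial-like cells and 558 and 1382 macrophage-like cells, and they may come from different mice, which cannot be told apart from sex here.

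**Figure D4:**
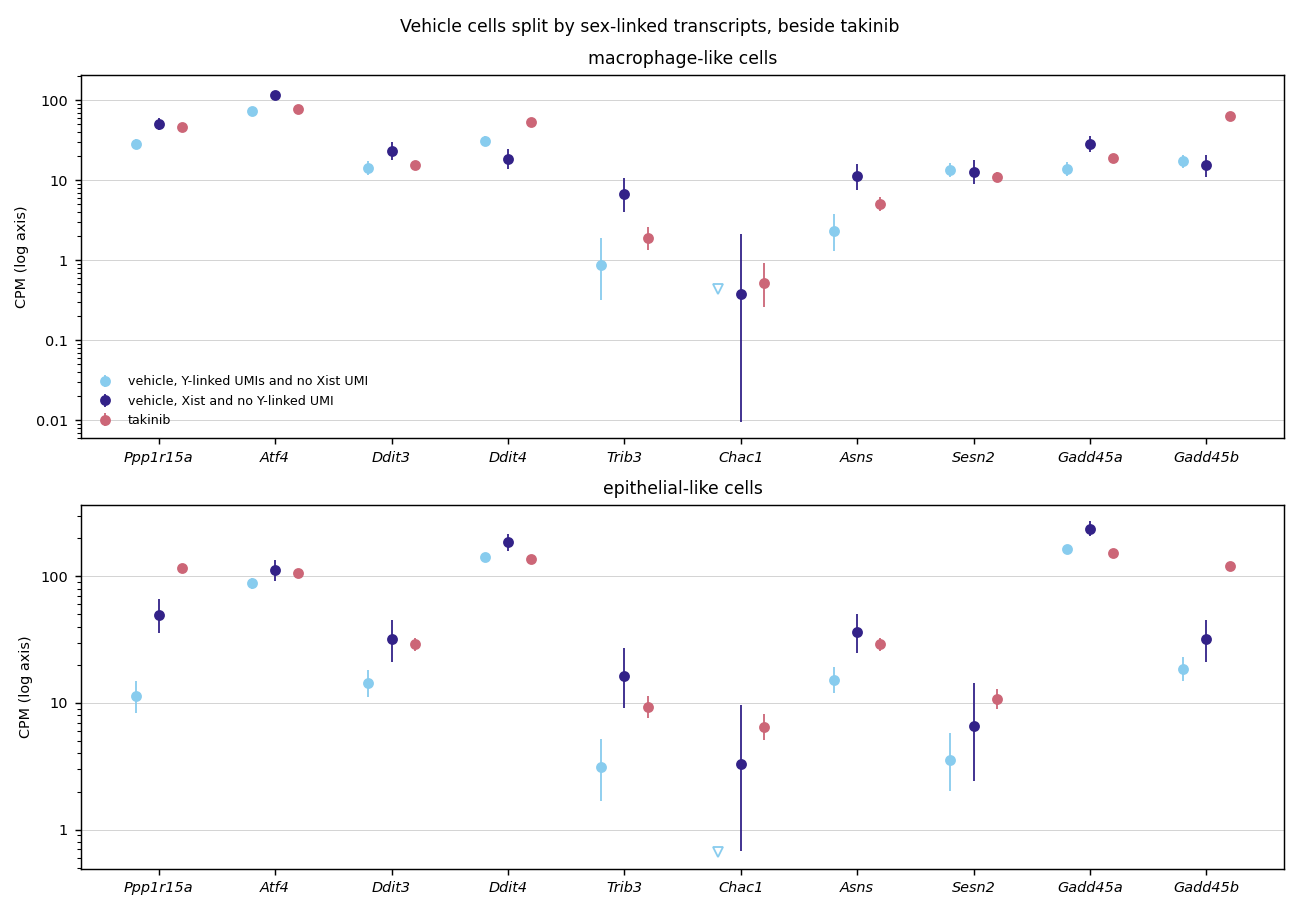
Levels (CPM, log axis) of the 10 genes in vehicle cells with Y-linked UMIs and no Xist (light blue), vehicle cells with Xist and no Y-linked UMI (dark blue) and takinib cells (red), for macrophage-like cells above and epithelial-like cells below; bars are 95% Poisson intervals and triangles mark 3 counts where the count was 0. Gadd45b in takinib lies above both vehicle sets in both classes, whereas Asns, Ddit3 and Trib3 in takinib lie between the vehicle sets or beside the Xist set.

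Neutrophil transcripts also moved with treatment inside other classes. The summed level of 9 neutrophil markers went from 139 CPM in vehicle to 12995 in takinib epithelial-like cells, 209 to 8062 in fibroblast-like cells, 357 to 2107 in macrophage-like cells and 279 to 12968 in T-like cells. In dendritic-like cells it went from 58.3 to 5942 CPM and in B-like cells from 102 to 4094, against 42390 and 125239 in neutrophil-like cells themselves. All 9 markers were higher in takinib in epithelial-like, fibroblast-like and T-like cells, and 8 of the 9 in macrophage-like, dendritic-like and B-like cells. Vehicle fibroblast-like and B-like cells had 1 of the 9 at 0, T-like cells 3 and dendritic-like cells 2, and takinib dendritic-like cells had 1 at 0. The members Ppp1r15a, Atf4, Ddit3, Sesn2, Gadd45a and Gadd45b had their highest takinib level among classes in neutrophil-like cells. A takinib neutrophil profile, scaled by the S100a8 and S100a9 level, was then taken off each class, which removed 10.3% of epithelial-like takinib UMIs. The epithelial-like ratio of Ppp1r15a was 5.05, of Gadd45b 2.75, of Sesn2 1.63 and of Chac1 10.7. In fibroblast-like cells, where 6.37% was removed, Ppp1r15a stayed at 3.17, Ddit4 at 2.59 and Asns at 1.83, but Gadd45b came to 0.87 and Gadd45a to 0.33. In macrophage-like cells Gadd45b was 3.06. Summed levels of 8 erythroid markers were also higher in takinib, 46.7 and 456 CPM in epithelial-like, 10.7 and 286 in fibroblast-like, 6.03 and 73.9 in macrophage-like and 5.58 and 200.1 in T-like cells, and those of 9 acinar markers were lower, 117 and 12.1 CPM in epithelial-like and 165 and 6.95 in fibroblast-like cells. Asns had its highest level in erythroid-like cells, and the part of erythroid transcripts in the Asns values of other classes was not tested.

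The other genes of the pathway showed no common direction. The 4 eIF2 kinases, which start the response, had 0 of 4 members 2-fold higher or lower in epithelial-like, fibroblast-like and macrophage-like cells, and 0 of the 1 tested in neutrophil-like cells; the extremes of the first were Eif2ak2 at 25.6 and 29.7 CPM (1.16) and Eif2ak4 at 15.4 and 11 (0.72). Among 10 genes of eIF2, its exchange factor and its phosphatase, 2 were 2-fold higher in fibroblast-like cells, with Eif2b1 at 10.7 and 27.8 CPM (2.59 [1.69, 4.07]), 0 of 10 in epithelial-like and macrophage-like cells, and 0 of 5 tested in neutrophil-like cells. Of 13 tRNA synthetases, many of which are ATF4 targets, 0 of 13 tested in the first 3 classes and 0 of 3 tested in neutrophil-like cells were 2-fold higher, and Eprs was lower in the last (0.31); Gars, the one with the highest ratio in each, was 1.32 in epithelial-like, 1.87 in fibroblast-like, 1.39 in macrophage-like and 0.73 in neutrophil-like cells. The 16 endoplasmic reticulum chaperones and targets of the IRE1 and ATF6 arms had median ratios of 0.83, 0.76, 0.93 and 0.86 in those classes, over 16, 16, 16 and 11 tested. In the same order 0, 2, 0 and 3 were 2-fold lower and 0 higher in each. Of all genes tested in these classes, 10.7%, 13.9%, 8.16% and 28.7% were 2-fold lower. The median ratios of all genes were 0.89, 0.88, 1.04 and 0.70. Herpud1, which takes part in degrading misfolded protein, was 98.1 and 43.4 CPM in fibroblast-like cells (0.44 [0.36, 0.54]).

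Amino acid genes were mixed, and the shares of all genes higher or lower in each class are those given above. Of 10 synthesis enzymes in epithelial-like cells 2 were 2-fold higher and 2 lower, with Psat1, an enzyme of serine synthesis, at 8.01 and 20.2 CPM (2.52 [1.89, 3.40]) and Cth, which makes cysteine, at 3.68 and 1.32 (0.36 [0.18, 0.70]). In fibroblast-like cells 5 of 9 tested were higher and 1 lower, led by Psat1 at 7.40 and 21.1 CPM (2.86 [1.72, 4.95]), with Gpt2 lowest at 0.46 [0.19, 1.06]. In macrophage-like cells 0 of 7 passed 2-fold, with Phgdh highest at 1.97 and Aldh18a1 lowest at 0.64. Slc7a11, the cystine importer, had the highest ratio among the transporters in epithelial-like, fibroblast-like, neutrophil-like, dendritic-like (1.31) and T-like cells (36.0, from 221 vehicle cells). It was 6.57 and 120 CPM in epithelial-like cells (18.2 [13.7, 24.7]), 8.14 and 46.6 in fibroblast-like cells (5.73 [3.65, 9.39]) and 86.8 and 779 in neutrophil-like cells (8.97 [6.28, 13.3]), so its takinib level was also highest in neutrophil-like cells, whose transcripts stood in the other classes as given above.

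Partner factors and relatives of the members differed in direction between classes, for which the shares over all genes are those given above. Atf3, an ATF4 target, was 38.3 CPM in vehicle and 160 in takinib epithelial-like cells (4.17 [3.68, 4.73]) and 227 and 91.3 in macrophage-like cells (0.40 [0.38, 0.42]); 2 of its 6-gene list were 2-fold higher in the former and 1, Atf3, lower in the latter. Of the same list in neutrophil-like cells 1 of 5 tested was higher, Nupr1 (2.06), and in fibroblast-like cells 0 of 6, from Cebpb (1.92) to Atf5 (0.60). Gadd45g, the third member of the GADD45 family, was 91.8 and 39.2 CPM in macrophage-like cells (0.43 [0.39, 0.46]), the class in which Gadd45b was 3.65. In the list of relatives 1 of 8 was higher and 3 lower in epithelial-like cells, from Trib2 at 2.42 to Ddit4l at 0.20, and 0 of 8 passed 2-fold in fibroblast-like cells, from Gadd45gip1 at 1.87 to Sesn3 at 0.51.

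Lists of other stimuli that reach some members gave these values. Of all genes tested, 8.27%, 7.4%, 6.19% and 9.09% were 2-fold higher in epithelial-like, fibroblast-like, macrophage-like and neutrophil-like cells. In the same order 10.7%, 13.9%, 8.16% and 28.7% were lower. Immediate-early genes, which also answer to tissue dissociation, were 2-fold higher in 7 of 12 in epithelial-like (Nr4a1 5.38, Ier3 1.22) and 9 of 12 in fibroblast-like cells (Fosb 7.49, Nr4a1 1.04). They were higher in 1 of 12 in macrophage-like (Fosl1 3.58) and 2 of 11 tested in neutrophil-like cells (Fosb 3.18, Egr1 0.80). In macrophage-like cells 1 of 12, Atf3, was lower (0.40). Hypoxia genes were higher in 6 of 9, 5 of 9, 0 of 9 and 5 of 8 in the same order of classes. The ratios spanned 0.86 (Vegfa) to 10.9 (Egln3) in epithelial-like, 1.13 (Ndrg1) to 4.42 (Egln3) in fibroblast-like, 0.66 (Adm) to 1.41 (Bnip3) in macrophage-like and 0.85 (Vegfa) to 4.84 (Bnip3) in neutrophil-like cells. Glucocorticoid targets were higher in 4 of 6, 1 of 6, 2 of 6 and 1 of 5. Zbtb16 led the first 3 of these classes (3.62, 3.56 and, from 1 vehicle count, 123 [21.6, 4882]) and Sgk1 the last (3.38), with Klf9 (1.12), Tsc22d3 (0.73), Per1 (1.01) and Tsc22d3 (1.17) lowest. Targets of p53 were 2-fold higher in 1 of 9 tested and lower in 2 in epithelial-like cells, with Cdkn1a at 3.06 and Aen at 0.34, and lower in 3 of 10 in fibroblast-like cells, from Ccng1 at 1.18 to Eda2r at 0.27. They passed 2-fold in 0 of 9 in macrophage-like cells (Zmat3 1.30, Aen 0.82) and were lower in 1 of 5 in neutrophil-like cells (Mdm2 1.44, Ccng1 0.25). Heat shock genes were lower in 3 of 8, 3 of 8, 3 of 8 and 3 of 6 and higher in 0, with Hsph1 at 0.33 and 0.34 in the first 2 classes, Hspa1b at 0.11 in macrophage-like cells and Hspd1 at 0.25 in neutrophil-like cells. The part of these stimuli in the members' levels was not tested.

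Across the 20 profiles of classes by library with at least 100 cells, the members did not follow 1 common pattern. Gadd45b and Ppp1r15a had the highest correlation of log2 levels (Pearson r 0.82), followed by Gadd45b with Sesn2 (0.75), and Ddit4 with Sesn2 had the lowest (-0.29). The genes most like Ppp1r15a were Acod1 (0.94), Ccl3 (0.92) and Arg2 (0.92), those most like Gadd45b were Il1r2 (0.93), Csrnp1 (0.90) and Il1b (0.89), and those most like Gadd45a were Sgms2 (0.91), Tnfrsf23 (0.89) and Nfkbiz (0.85). For Atf4 the highest values were lower, with Braf at 0.75, Mbd6 at 0.72 and Rb1cc1 at 0.71, and for Ddit4 they were Rnf4 and Kdm5c at 0.77 and Arid4b at 0.73. These profiles share 2 libraries and their depth, so the correlations describe these libraries.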

How the data were processed

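Droplet-based single-cell RNA sequencing was done on 2 libraries. What the authors deposited are unnormalized counts of UMIs for each gene in each barcode, made with Cell Ranger 4 for vehicle and 6.1.1 for takinib, per the file headers; the submitters' processing notes list Cell Ranger 2.1.1, STAR 2.0.4b, featureCounts 1.45 and build mm10. The vehicle matrix listed 704261 barcodes, the takinib matrix 34158 with at least 500 UMIs each, so the second had been filtered before deposit. Barcodes with at least 1000 UMIs, 500 genes and at most 20% mitochondrial UMIs were kept (9872 and 26790). Scrublet's automatic threshold removed 314 vehicle doublets; in takinib it marked 0.00373%, so the 1607 top-scoring cells (6%) were left out. Cells were clustered with scanpy 1.11.5 (2000 variable genes, 30 components, 15 neighbours, Leiden resolution 1) without correction between libraries. A cluster was named from 20 marker lists when at least 3 markers were detected in 10% of its cells with a scaled level above 0.2, no second class reached 0.75 of its score, and its 10 leading genes did not favour another class. Counts were summed per class and library, with exact Poisson and Clopper-Pearson intervals from scipy 1.17.1, tested on simulated data. The intervals cover counting error only.

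The members and lists were chosen with earlier results of these data known. All 10 members are named, though not with a value in every class, and from the other lists genes with the highest or lowest ratio of a list. Likeness took the 3 genes with the highest Pearson r of log2(CPM + 10), for members of at least 20 CPM on average. Alternatives were stricter depth and mitochondrial limits, doublets kept, thinning, a median shift, 10 CPM added, neutrophil subtraction, vehicle cells by sex markers, naming by best score and separate clustering. Gene positions are from GENCODE on GRCm38 and promoters from RefSeq.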

Additional observations from a re-analysis of the deposited data

How the results depend on the processing

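Of 567 ratios of single genes under alternatives, 414 lay within the counting interval of the reported ratio, and 49 lay on the other side of 1, of which 48 belong to ratios reported below 2-fold and 12 arose against vehicle cells with Xist. Of 22 ratios at or above 2-fold, 21 kept their direction and 15 stayed at least 2-fold under every planned and added alternative that gave a value. Neutrophil-like, dendritic-like, T-like and B-like cells had no value against vehicle cells with Xist. Their ratios, also those of at least 2-fold, were therefore not compared with that set. The exception in direction was Gadd45b in fibroblast-like cells, with a log2 ratio of -0.20 after the neutrophil profile was subtracted. The median log2 ratio over the members, 0.79 in all kept cells, was 0.64 with 2000 UMIs and 1000 genes, 1.09 thinned to 1000 UMIs, 1.14 with ratios shifted to a median of 0 and 0.34 with 10 CPM added. In epithelial-like cells (0.75) it was -0.10 against vehicle cells with Xist and 1.30 against vehicle cells with Y-linked UMIs, the latter chosen after seeing the data, and in macrophage-like cells (0.20) it was -0.57 and 0.72 and, with doublets kept, 0.45. It was -0.045 in fibroblast-like cells (0.50) after neutrophil subtraction, 1.47 in T-like cells (2.30) with each library clustered on its own, and 1.48 in B-like cells (0.22) with clusters named by best score. The cause was not tested. With mitochondrial UMIs limited to 10%, Sesn2 in neutrophil-like cells was 0.65-fold and Ppp1r15a 2.70-fold.

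Several alternatives gave no value: neutrophil subtraction for all kept cells and neutrophil-like cells; 2000 UMIs for neutrophil-like cells; vehicle cells with Xist for neutrophil-like, dendritic-like, T-like and B-like cells; and separate clustering for fibroblast-like, dendritic-like and B-like cells. No paired analysis was possible because each group has 1 library. Depth limits Trib3 and Chac1 most, and vehicle neutrophil-like and T-like cells, where several members had under 10 counts. In plasma-like and erythroid-like cells vehicle had too few cells to compare.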
